A study of Rattus norvegicus with 9 samples.

Results

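The p38 mitogen-activated protein (MAP) kinase pathway was examined through 9 genes whose mRNA was counted in rat spinal cord after spinal cord injury (SCI) and after SCI with high-frequency spinal cord stimulation (SCS). The rule for the genes was a list of names, with no measured value in it, but chosen with earlier results of these data known. They are the 4 p38 kinases (Mapk14, Mapk11, Mapk12 and Mapk13), the kinases that activate them (Map2k3 and Map2k6), a kinase that they activate (Mapkapk2), a phosphatase that inactivates them (Dusp1) and an mRNA-binding protein under their control (Zfp36). All 9 were found among the 30507 rows of the deposited count table, 8 by symbol. The row taken as Dusp1 carries no symbol, and was matched by its NCBI gene ID and by its place between Ergic1 and Neurl1b, the neighbours of Dusp1 in the RefSeq annotation.

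All rats were wild-type female Sprague-Dawley rats, 8 weeks old, and tissue was taken at 35 dpi (days after injury) with 3 rats, and 3 libraries, in each of 3 groups. Rats of the SCI group had a contusion at T10 and no stimulation, and rats of the SCI + SCS group had the same contusion, epidural electrodes, and a 10 kHz current of 0.12 mA (pulse width 30 µs) that ran 2 h each day, starting at 1 dpi. Sham rats had no contusion, and the sources differ on them: the labels call them untreated, and the methods describe a laminectomy. A group with electrodes and no current was not analysed here, so the electrode and the current cannot be told apart. Each library was whole tissue of the segments around the injury, and all 9 carry the same batch label. In whole tissue, fewer cells of a type and less RNA per cell cannot be told apart.

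The p38 kinases are switched on by stress and by inflammatory cytokines. Upstream MAP3 kinases phosphorylate the kinase kinases MKK3 (Map2k3) and MKK6 (Map2k6), and these phosphorylate p38 on a threonine and a tyrosine. Active p38α (Mapk14) phosphorylates the kinase MK2 (Mapkapk2), which in turn phosphorylates tristetraprolin (Zfp36) and so holds back its decay of cytokine mRNAs. MKP-1 (Dusp1) removes the phosphates from p38 and closes the loop. In the injured spinal cord, p38 in microglia is a long-studied part of pain hypersensitivity. mRNA counts do not measure phosphorylation, and so say nothing of how active the kinases were.

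Between 62844376 and 88358570 counts fell on genes in each library. Levels within a gene are given as CPM, a count relative to the total of its library with TMM scaling over the 9 libraries, and a level of 3 counts was between 0.0340 and 0.0477 CPM. Skeletal muscle marker genes took 0.411% of the counts in SCI replicate 1 and 0.153% in SCI replicate 3, and between 0.0173% and 0.0275% in the other 7 libraries. Results are therefore also given without each of these 2 libraries where that changes a call. The defining markers of neurons, oligodendrocytes and astrocytes were above 0 in all 9 libraries.

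After injury, 6 of the 9 genes rose, 2 fell and 1 did not pass the test. The largest rise was of Mapk13, 7.56-fold from a very low level, followed by Map2k3 at 2.43-fold and Dusp1 at 2.09-fold, and Mapk11 fell 2.47-fold. By edgeR's quasi-likelihood test over the 6 libraries of the 2 groups, with Benjamini-Hochberg adjustment over all 17822 rows and a threshold of 0.05, 8 of 9 genes were called. The same test called 49.4% of all rows, 24.3% as higher and 25.0% as lower, so a call was common in this comparison. With the further condition of |log2FC|>1, 4 of the 9 were differentially expressed genes (DEGs), against 26.9% of all rows. The libraries of the 2 groups did not overlap for 8 of 9 genes and for 63.6% of all rows, and DESeq2, the alternative test, called 8 of 9 genes and 50.1% of its rows. Without SCI replicate 1, edgeR called 7 of the 9 and 42.7% of all rows, and without SCI replicate 3 it called 4 and 35.9%. The median log2FC was 0.78 over the 9 genes and 0.02 over all rows. The levels in each library are plotted for the 9 genes.

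**Figure D1:**
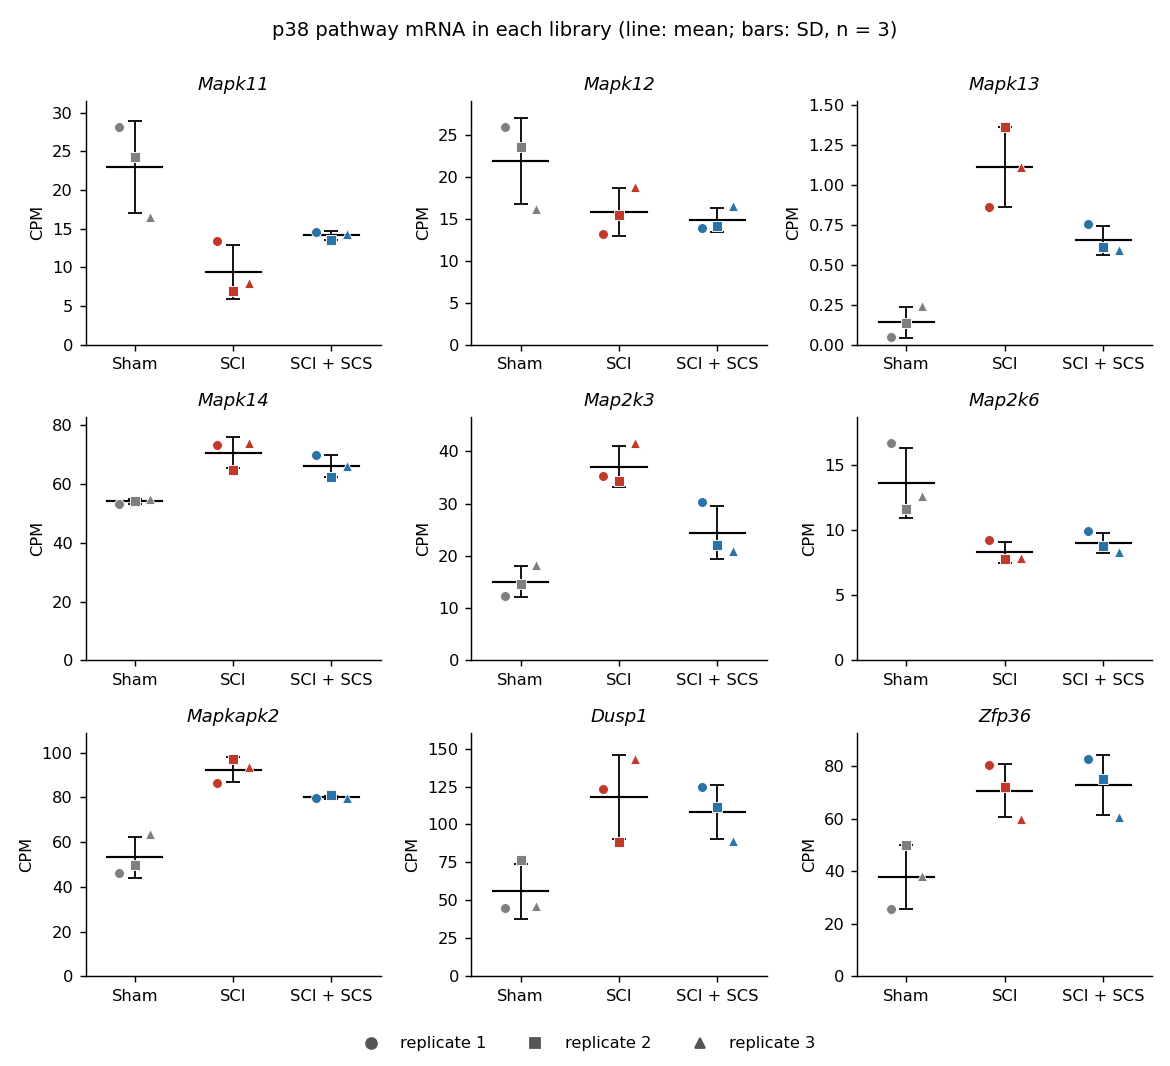
Level of each of the 9 genes (y axis, CPM) in the 3 libraries of each group (x axis); symbols mark the replicate number, lines the mean and bars the SD (n = 3). In 8 genes the SCI libraries lie wholly above or below the Sham libraries, and Mapk12 is the exception.

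Among the p38 kinases, the p38α gene Mapk14 was the most abundant per kilobase. Mapk14 lies on chromosome 20 (chr20:6749670-6810589, plus strand, in mRatBN7.2, the build that the submitters' processing notes name). It had 53.3, 54.1 and 55.0 CPM in the Sham libraries, 73.4, 64.8 and 74.0 CPM in SCI, and 69.8, 62.5 and 66.2 CPM in SCI + SCS. All 6 libraries from injured rats were above all 3 Sham libraries. The rise in SCI was 1.29-fold (log2FC 0.37 ± 0.09 SE, adjusted p = 0.0159 by edgeR). This call was lost without SCI replicate 3 (adjusted p = 0.0579) and without Sham replicate 2 (adjusted p = 0.0679), with a log2FC of 0.33 and 0.36.

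Mapk11 encodes p38β, the kinase closest to p38α, and moved the other way. It had 28.1, 24.2 and 16.5 CPM in Sham, 13.4, 6.88 and 7.98 CPM in SCI, and 14.6, 13.5 and 14.3 CPM in SCI + SCS. Every library from an injured rat was below every Sham library. The log2FC of SCI against Sham was -1.30 ± 0.31 SE (adjusted p = 0.0144 by edgeR), and the adjusted p was 0.0539 without SCI replicate 3. Within the SCI group, replicate 1 was the highest, near the level of the SCI + SCS libraries.

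Mapk12 encodes p38γ, which is best known from skeletal muscle, and is the only one of the 9 genes that was not called after injury. Mapk12 had 26.0, 23.6 and 16.1 CPM in Sham, 13.3, 15.4 and 18.8 CPM in SCI, and 14.0, 14.1 and 16.5 CPM in SCI + SCS. The lowest Sham library lay inside the range of the SCI libraries. The log2FC was -0.49 ± 0.22 SE (adjusted p = 0.104 by edgeR), with a 95% interval from -1.01 to 0.03, and it was called without Sham replicate 3 (log2FC -0.67, adjusted p = 0.0244). Of the 2 SCI libraries with more muscle marker counts, replicate 1 had the lowest Mapk12 level of the group and replicate 3 the highest. The log2FC was -0.37 without SCI replicate 1 (adjusted p = 0.253 by edgeR) and -0.64 without SCI replicate 3 (adjusted p = 0.0874). The part of muscle RNA in the Mapk12 level was not tested. Mapk11 and Mapk12 stand side by side on the minus strand of chromosome 7 (chr7:120218478-120225395 and chr7:120206271-120216664), 1813 bases apart.

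Mapk13 encodes p38δ, and its mRNA was close to the limit of detection in Sham cord. Its raw counts were 3, 12 and 21 in Sham, 68, 96 and 77 in SCI, and 54, 43 and 38 in SCI + SCS. As levels, these were 0.0472, 0.136 and 0.240 CPM in Sham, 0.863, 1.36 and 1.11 CPM in SCI, and 0.758, 0.610 and 0.595 CPM in SCI + SCS. The 3 groups did not overlap, with Sham lowest and SCI highest. The log2FC after injury was 2.92 ± 0.57 SE (adjusted p = 0.00705 by edgeR), and its 95% interval ran from 1.56 to 4.28. The gene lies downstream of Mapk14 on the same strand of chromosome 20 (chr20:6835320-6844222).

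Because the 4 kinases differ in length, they were set side by side as FPKM, the deposited values per kilobase of gene and per library size. The length behind the FPKM of Mapk11, Mapk13 and Mapk14 was not constant between libraries, as described below with Mapkapk2. Mapk14 made up 36.7%, 38.6% and 49.1% of the summed p38 FPKM in the Sham libraries, 61.2%, 60.6% and 59.6% in SCI, and 59.0%, 55.9% and 55.1% in SCI + SCS. The share was thus 41.5% ± 6.69 in Sham, 60.5% ± 0.813 in SCI and 56.6% ± 2.06 in SCI + SCS (SD, n = 3). The groups did not overlap, and the difference between SCI and Sham was 19.0 percentage points (exact permutation test, two-sided, p = 0.1, the smallest that 3 libraries against 3 allow). Mapk11 had a share of 25.4% ± 3.55 in Sham, 11.04% ± 3.86 in SCI and 17.1% ± 0.582 in SCI + SCS, and Mapk12 of 32.9% ± 3.36, 26.6% ± 4.19 and 25.2% ± 2.22. Mapk13 stayed the smallest part, at 0.220% ± 0.180, 1.88% ± 0.538 and 1.09% ± 0.136. The sum of the 4 was 31.7 ± 4.42 FPKM in Sham, 28.5 ± 2.92 FPKM in SCI and 29.2 ± 1.49 FPKM in SCI + SCS, and these ranges overlapped.

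**Figure D2:**
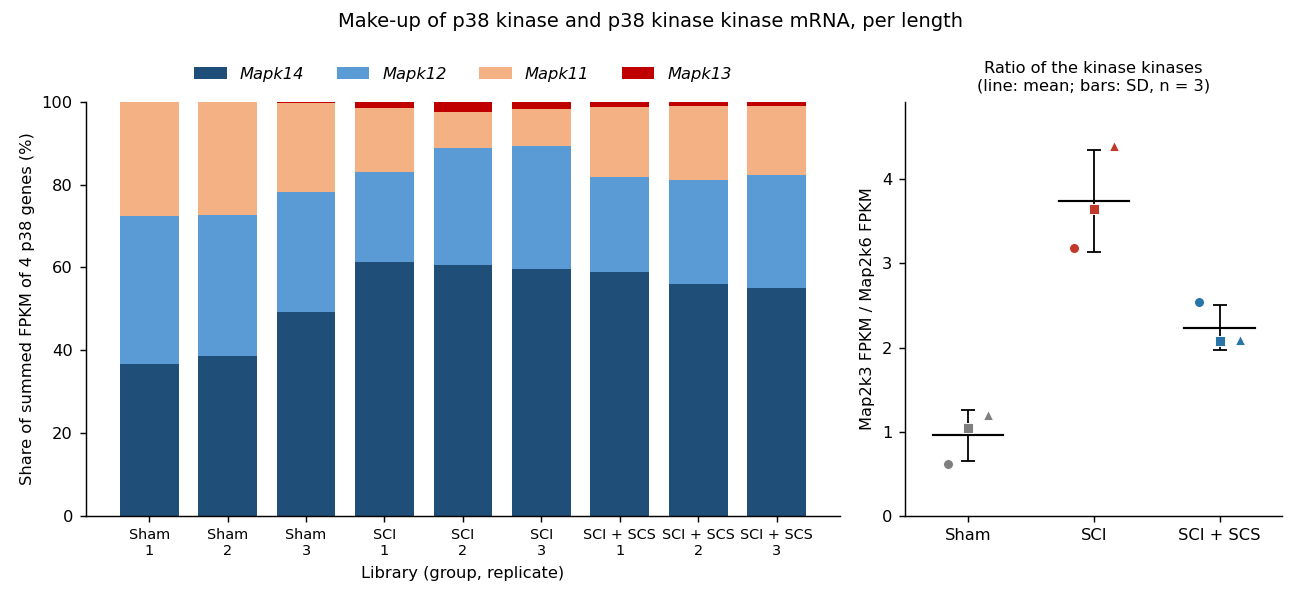
Left, share of each of the 4 p38 kinase genes in their summed FPKM (y axis, %) in each library (x axis, group and replicate); right, ratio of Map2k3 to Map2k6 FPKM per library, with lines for the mean and bars for the SD (n = 3). Mapk14 takes 36.7% to 49.1% in Sham and 55.1% to 61.2% in the other libraries, and the ratio is highest in SCI.

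The 2 kinase kinases went in opposite directions. Map2k3 encodes MKK3 and is on chromosome 10 (chr10:45607163-45629492, plus strand). It had 12.4, 14.6 and 18.2 CPM in Sham, 35.4, 34.2 and 41.6 CPM in SCI, and 30.4, 22.0 and 21.0 CPM in SCI + SCS. The 3 groups did not overlap. The log2FC after injury was 1.28 ± 0.16 SE (adjusted p = 0.0021 by edgeR), the smallest adjusted p of the 9 genes. Under the 19 other settings tried, the log2FC of Map2k3 was between 1.15 and 1.43 and the call was never lost.

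Map2k6 encodes MKK6, and lies on the same strand of the same chromosome (chr10:95373204-95488293). It had 16.7, 11.6 and 12.6 CPM in Sham, 9.20, 7.79 and 7.85 CPM in SCI, and 9.89, 8.79 and 8.35 CPM in SCI + SCS. All libraries from injured rats were below all Sham libraries. The log2FC after injury was -0.74 ± 0.18 SE (adjusted p = 0.0158 by edgeR). Without SCI replicate 2 or SCI replicate 3 the adjusted p was 0.0503 and 0.0524.

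The ratio of Map2k3 to Map2k6 FPKM within a library was 0.954 ± 0.303 in Sham, 3.74 ± 0.611 in SCI and 2.24 ± 0.267 in SCI + SCS (SD, n = 3), and no library of one group reached the range of another. On the log2 scale the ratio was 2.01 higher in SCI than in Sham (exact permutation test, two-sided, p = 0.1, the smallest possible).

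The 250 bases before the start of each of these 2 genes are printed because the genes are paired in function and moved apart. The sequences are from RefSeq (GRCr8, 5′ to 3′ on the gene's strand, chr10:46107389-46107638 for Map2k3 and chr10:95872497-95872746 for Map2k6), and capitals mark a CCAAT box, letters CCAAT or ATTGG on either strand.
Map2k3: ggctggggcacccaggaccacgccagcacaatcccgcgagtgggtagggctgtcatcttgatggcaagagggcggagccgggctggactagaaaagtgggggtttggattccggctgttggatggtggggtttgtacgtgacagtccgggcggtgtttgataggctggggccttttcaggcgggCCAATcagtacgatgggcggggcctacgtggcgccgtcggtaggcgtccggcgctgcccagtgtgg
Map2k6: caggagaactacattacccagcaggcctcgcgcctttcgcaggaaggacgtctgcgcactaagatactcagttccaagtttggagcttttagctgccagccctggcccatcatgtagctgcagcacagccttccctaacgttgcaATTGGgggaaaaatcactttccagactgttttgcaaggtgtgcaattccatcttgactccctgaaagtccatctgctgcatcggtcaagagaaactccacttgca
Both hold 1 CCAAT box, as do 34.0% of 33469 rat promoters of this length. The Map2k3 stretch has 64.8% G and C and 19 CpG dinucleotides, and the Map2k6 stretch 51.2% and 7. Over all promoters the medians are 51.2% and 5.

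Mapkapk2 encodes MK2, the kinase through which p38α acts on cytokine mRNAs. It had 46.2, 49.5 and 63.7 CPM in Sham, 86.2, 97.2 and 93.5 CPM in SCI, and 79.5, 80.9 and 79.8 CPM in SCI + SCS. The 3 groups did not overlap, and the SCI + SCS libraries differed little among themselves. The log2FC after injury was 0.78 ± 0.14 SE (adjusted p = 0.00534 by edgeR). From the deposited FPKM the rise was smaller and not called (limma on log2(FPKM + 1), log2FC 0.47, adjusted p = 0.105).

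The counts and the FPKM of Mapkapk2 part because the gene length that turns one into the other was not constant. Scaled within each library, it was 3859, 3708 and 3740 bases in the Sham libraries, 5218, 4095 and 4727 bases in SCI, and 4635, 4088 and 4345 bases in SCI + SCS. The scale of a library is the median of length over the row's mean length. It was taken over rows with at least 1000 counts in every library. Every library from an injured rat had a longer implied length than every Sham library. The highest was 1.41 times the lowest, a ratio passed by 1.81% of the 7146 rows with at least 1000 counts in every library (median ratio 1.004). Dusp1, Zfp36, Map2k3, Map2k6 and Mapk12 had implied lengths that were constant to within 4 bases. Which transcripts of Mapkapk2 the reads came from was not tested.

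**Figure D3:**
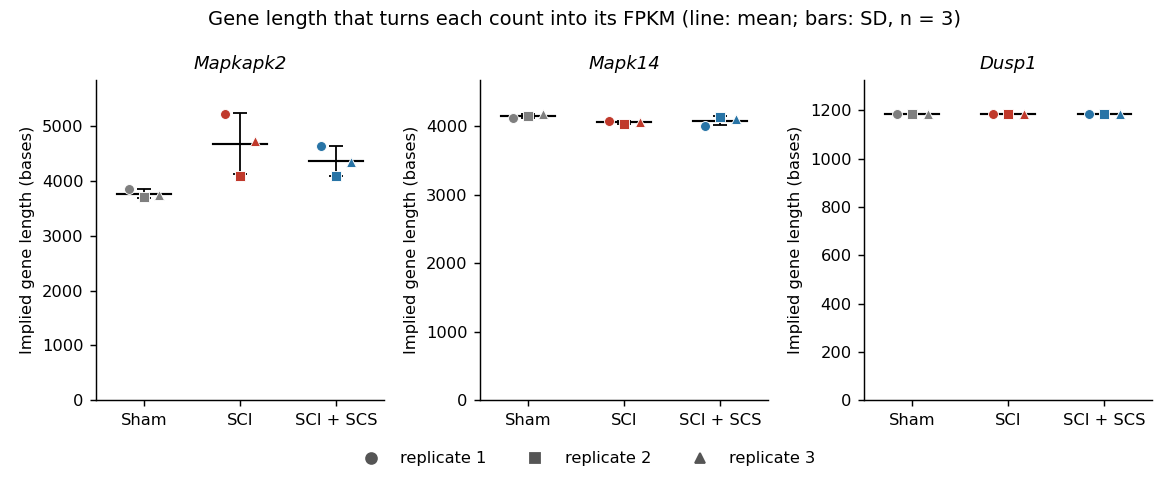
Gene length in bases (y axis) that turns the count of Mapkapk2, Mapk14 and Dusp1 into the deposited FPKM in each library (x axis, group), after scaling within each library, with lines for the mean and bars for the SD (n = 3). Mapkapk2 varies from 3708 to 5218 bases, while Dusp1 stays at 1184 bases.

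The feedback genes both rose. Dusp1 encodes MKP-1, which dephosphorylates p38 and JNK, and is one of the genes that cells induce soonest under stress (chr10:16681808-16683120, plus strand). It had 44.8, 76.4 and 46.3 CPM in Sham, 123, 88.6 and 143 CPM in SCI, and 124, 111 and 89.3 CPM in SCI + SCS. No Sham library reached a library from an injured rat, although Sham replicate 2 came near. The log2FC after injury was 1.06 ± 0.27 SE (adjusted p = 0.0169 by edgeR), and 0.90 without SCI replicate 3 (adjusted p = 0.0595). Per kilobase, Dusp1 was the most abundant of the 9 genes in each group, with 47.1 ± 16.1 FPKM in Sham, 98.9 ± 24.5 FPKM in SCI and 93.3 ± 15.3 FPKM in SCI + SCS (SD, n = 3).

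Zfp36 encodes tristetraprolin, which binds AU-rich elements of cytokine mRNAs and hastens their decay (chr1:83669084-83671564, minus strand). It had 25.6, 49.95 and 38.2 CPM in Sham, 80.3, 72.0 and 59.9 CPM in SCI, and 82.8, 75.0 and 60.5 CPM in SCI + SCS. The Sham libraries were below all others. The log2FC after injury was 0.88 ± 0.25 SE (adjusted p = 0.0254 by edgeR), and the call was lost without SCI replicate 1 (adjusted p = 0.0732), SCI replicate 2 (adjusted p = 0.0708) or Sham replicate 3 (adjusted p = 0.0596). All 2481 bases of Zfp36 lie within Paf1, a gene of the opposite strand, and the sources used here do not say whether counting used the strand, so reads of the pair may be mixed. The larger of 2 rows for Paf1 had a log2FC of 0.18 ± 0.09 SE (adjusted p = 0.151 by edgeR) and the smaller fell by 1.01 on the log2 scale (adjusted p = 0.0252).

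The promoters of the 2 feedback genes are printed because the genes rose together and are known for fast induction. They are from RefSeq (GRCr8, chr10:17184603-17184852 for Dusp1 and chr1:92799109-92799358 on the minus strand for Zfp36), and capitals mark a full cAMP response element, TGACGTCA, and an E-box, CACGTG.
Dusp1: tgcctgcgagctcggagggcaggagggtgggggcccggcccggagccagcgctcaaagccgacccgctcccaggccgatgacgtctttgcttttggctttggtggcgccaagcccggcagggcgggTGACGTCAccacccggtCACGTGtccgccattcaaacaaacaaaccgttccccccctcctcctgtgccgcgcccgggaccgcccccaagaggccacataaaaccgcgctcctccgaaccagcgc
Zfp36: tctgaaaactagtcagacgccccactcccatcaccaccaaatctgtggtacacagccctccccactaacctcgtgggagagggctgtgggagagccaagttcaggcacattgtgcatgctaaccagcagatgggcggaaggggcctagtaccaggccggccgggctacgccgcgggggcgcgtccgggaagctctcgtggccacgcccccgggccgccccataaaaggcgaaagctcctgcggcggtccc
In Dusp1 the cAMP response element starts 124 bases and the E-box 107 bases before the gene's start. Among the 33469 promoters, 1.59% hold the full element and 5.59% the E-box, on either strand. Neither stands in this window of Zfp36. The shorter letters TGACG, which the full element contains, stand in Dusp1 and Mapkapk2 and in 18.2% of all promoters, and the GC box GGGCGG in 7 of the 9 genes and in 30.5%. The AP-1 letters TGANTCA (6.34%), the TATA box TATAAA (12.9%), and a single spelling each of a serum response element (0.0299%) and an NF-κB site (0.0956%) were in none of the 9 windows.

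Markers of several cell types moved with these genes after injury, where 24.3% of all rows were called higher and 25.0% lower. All 7 markers of phagocytic macrophages rose, with a summed level of 342 to 690 CPM in Sham, 3053 to 4150 CPM in SCI and 2264 to 2632 CPM in SCI + SCS, and only Ms4a7 was at 0, in 1 Sham library. Of 6 microglia markers 3 rose, and their sum went from 310 to 446 CPM in Sham to 689 to 1024 CPM in SCI and 757 to 958 CPM in SCI + SCS. All 7 neuron markers fell, with a sum of 4015 to 8826 CPM in Sham, 588 to 1979 CPM in SCI and 1783 to 3019 CPM in SCI + SCS. Of 6 oligodendrocyte markers 5 fell, and their sum was 58212 to 81772 CPM in Sham, 17132 to 32648 CPM in SCI and 30234 to 35865 CPM in SCI + SCS. All 6 fibroblast markers rose, with a sum of 409 to 1904 CPM in Sham, 3349 to 5044 CPM in SCI and 2058 to 3498 CPM in SCI + SCS. Of 6 T cell markers 5 rose, and their sum was 1.74 to 3.34 CPM in Sham, 24.1 to 26.2 CPM in SCI and 8.40 to 16.0 CPM in SCI + SCS, with Cd3d at 0 in 1 Sham and 2 SCI + SCS libraries. In the remaining lists, 3 of 5 neutrophil, 2 of 5 Schwann cell, 9 of 13 skeletal muscle and 2 of 4 adipocyte markers rose and none fell. Of 6 endothelium markers 2 rose and 1 fell, and of 6 astrocyte markers 0 rose and 2 fell. The summed astrocyte level was 6537 to 11340 CPM in Sham, 7988 to 12188 CPM in SCI and 12014 to 15387 CPM in SCI + SCS. Between SCI + SCS and SCI no marker was called by edgeR, and 24.2% of all rows had an unadjusted p under 0.05. So did 5 of 6 astrocyte markers (median log2FC 0.51), 5 of 6 T cell (-1.76), 5 of 6 fibroblast (-0.70) and 6 of 7 phagocytic macrophage markers (-0.82). It was 11 of 12 for skeletal muscle (-5.39), 4 of 6 for oligodendrocytes (0.47), 2 of 7 for neurons (1.05) and 2 of 4 for adipocytes (-0.85). It was 2 of 6 for endothelium, 1 of 6 for microglia, and 0 of 5 each for neutrophils and Schwann cells. DESeq2, which called 16.1% of its rows, called 12 skeletal muscle, 6 phagocytic macrophage, 5 fibroblast, 4 T cell and 4 oligodendrocyte markers. It also called 3 astrocyte, 2 neuron and 2 adipocyte markers, and 0 of microglia, neutrophils, Schwann cells and endothelium. The part of these differences in the p38 results was not tested.

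Whether stimulation altered these genes after injury was asked by comparing SCI + SCS with SCI. None of the 9 genes was called by edgeR, for which 0.00566% of 17663 rows were called, a single row without a symbol. At an unadjusted p under 0.05, 4 of the 9 genes passed, against 24.2% of all rows, and these 4 were also the ones whose libraries did not overlap (29.5% of all rows). The 4 fell to 1 without SCI replicate 2, without SCI replicate 3, without any of the 3 SCI + SCS libraries, or with all 9 libraries in one fit, and stayed at 4 without SCI replicate 1. The share of all rows at this threshold was not computed under these settings, so the fall cannot be set beside it. DESeq2 called 16.1% of its rows and 1 of the 9 genes, Map2k3. The median log2FC was -0.09 over the 9 genes and -0.01 over all rows.

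**Figure D4:**
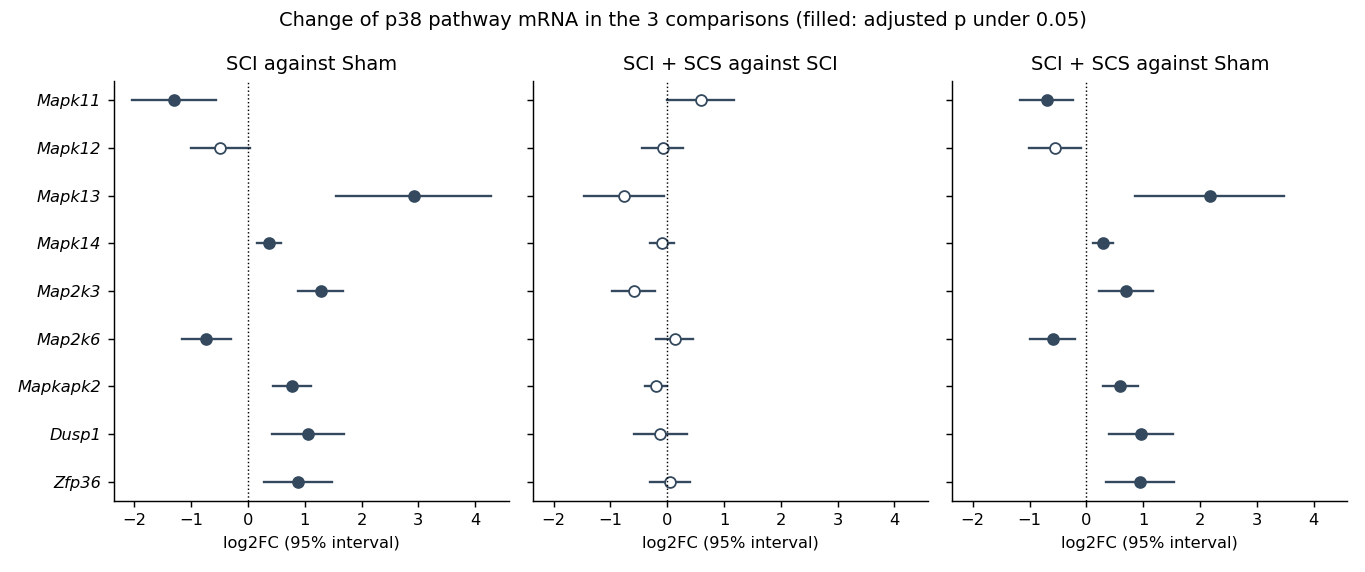
log2FC of each of the 9 genes (x axis, with its 95% interval from edgeR) in the 3 comparisons; filled points have an adjusted p under 0.05 and the dotted line marks no change. Against Sham, 8 genes are filled in each of 2 panels, and between SCI + SCS and SCI none is.

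Map2k3 had the smallest adjusted p of the 9 in this comparison. Its log2FC was -0.59 ± 0.16 SE, a level 1.51-fold lower in the stimulated group, with a 95% interval from -0.97 to -0.21 (adjusted p = 0.104 by edgeR, adjusted p = 0.0122 by DESeq2). All 3 SCI + SCS libraries were below all 3 SCI libraries, and the nearest pair stood at 30.4 and 34.2 CPM. Over the 19 other settings the log2FC was between -0.78 and -0.50.

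The other 3 genes without overlap were Mapk11, Mapk13 and Mapkapk2. Mapk11 had a log2FC of 0.59 ± 0.25 SE (adjusted p = 0.204 by edgeR), and the lowest SCI + SCS library, at 13.5 CPM, was next to SCI replicate 1 at 13.4 CPM. The log2FC of Mapk11 was 0.92 without SCI replicate 1 (adjusted p = 0.0679 by edgeR) and 0.48 without SCI replicate 3 (adjusted p = 0.432), the libraries with muscle counts. It was 0.40 without SCI replicate 2 (adjusted p = 0.359), and 1.07 with the muscle level as a covariate (adjusted p = 0.203). The part of muscle RNA in the Mapk11 level was not tested. Mapk13 had a log2FC of -0.75 ± 0.30 SE (adjusted p = 0.183), on 38 to 54 counts per library against 68 to 96. Mapkapk2 had a log2FC of -0.20 ± 0.08 SE from counts (adjusted p = 0.192), and of -0.06 from log2(FPKM + 1) (adjusted p = 0.880 by limma), where the SCI + SCS libraries, from 17.5 to 20.1 FPKM, lay inside the SCI range of 14.7 to 24.8 FPKM. In each of the 4, the SCI + SCS mean lay between the means of SCI and Sham, where the SCI libraries enter both differences.

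The remaining 5 genes overlapped between SCI + SCS and SCI. For Mapk14 the log2FC was -0.09 and the 95% interval ran from -0.30 to 0.12, and for Map2k6 it was 0.13 with an interval from -0.20 to 0.46. For the feedback genes the values were -0.12 (interval -0.59 to 0.35) for Dusp1 and 0.05 (interval -0.31 to 0.41) for Zfp36. Mapk12 had a log2FC of -0.08 with an interval from -0.45 to 0.28. With 3 rats per group, differences of either sign inside these intervals were not excluded.

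The make-up of the p38 mRNA was set side by side in the same way. The difference, SCI + SCS minus SCI, was -3.83 percentage points in the Mapk14 share and -0.74 in the log2 ratio of Map2k3 to Map2k6, and in both cases the 3 libraries of one group lay below the 3 of the other (exact permutation test, two-sided, p = 0.1 for each, the smallest possible, so neither could pass 0.05). The Mapk14 shares came close, at 58.96% in the highest SCI + SCS library and 59.59% in the lowest SCI library. The lowest ratio among SCI libraries was 3.19 and the highest 4.397, against 2.08 and 2.54 with SCS. Summed muscle markers were 166 to 4452 CPM in SCI and 186 to 242 CPM in SCI + SCS. Without SCI replicate 1 the share difference was -3.45 and the log2 ratio difference -0.85, and without SCI replicate 3 they were -4.26 and -0.61.

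The comparison of SCI + SCS with Sham shows which of the 9 genes still differed in stimulated rats. It uses the Sham libraries of the first comparison, so the 2 are not independent. Of the 9 genes 6 were higher, 2 lower and 1 not called, against 32.4% of 17640 rows called, 16.2% in each direction. The libraries did not overlap for 8 of the 9 and for 53.2% of all rows, and DESeq2 called 9 of 9 and 39.1% of its rows. Mapk13 alone was a DEG (11.7% of all rows were), with a log2FC of 2.17 ± 0.55 SE (adjusted p = 0.0276 by edgeR) after 2.92 in SCI against Sham. Map2k3 had a log2FC of 0.70 ± 0.20 SE (adjusted p = 0.0387), beside 1.28 in SCI. Mapk11 had -0.70 ± 0.20 SE (adjusted p = 0.0371), beside -1.30, and Mapkapk2 0.59 ± 0.13 SE (adjusted p = 0.0181), beside 0.78.

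Dusp1, Zfp36, Mapk14 and Map2k6 had values near those of SCI against Sham. Dusp1 had a log2FC of 0.96 ± 0.24 SE (adjusted p = 0.0261 by edgeR) beside 1.06, and Zfp36 0.94 ± 0.25 SE (adjusted p = 0.0314) beside 0.88. Mapk14 had 0.29 ± 0.08 SE (adjusted p = 0.0293) beside 0.37, and Map2k6 -0.59 ± 0.17 SE (adjusted p = 0.0381) beside -0.74. Mapk12 was not called, with a log2FC of -0.56 ± 0.19 SE (adjusted p = 0.0646 by edgeR, 0.0249 by DESeq2, and 0.0093 by edgeR without Sham replicate 3). These calls were close to the threshold: leaving out 1 library gave between 0 and 8 called genes, with 0 without SCI + SCS replicate 1 or 2, 1 without SCI + SCS replicate 3, 2 without Sham replicate 2 and 3 without Sham replicate 1. Calls over all rows fell too, from 5710 of 17640 in the main test. They were 2152 of 17917, 2825 of 17939 and 3373 of 17937 without SCI + SCS replicates 1, 2 and 3. Without Sham replicates 2 and 1 they were 2149 of 17927 and 4466 of 17986. No direction changed.

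The wider pathway was described with 9 lists of genes around p38. Their counts in SCI against Sham stand beside the 24.3% of all rows called higher and the 25.0% called lower. Of 22 tested MAP3 kinases and adaptors 8 were higher and 5 lower, the latter near the share of all rows. Gadd45g, whose product binds and activates MAP3 kinases, rose with a log2FC of 1.75 ± 0.22 SE (adjusted p = 0.00207 by edgeR), and Map3k6, a stress-activated MAP3 kinase, rose by 1.71 ± 0.37 SE (adjusted p = 0.00985). Tab3, an adaptor of the kinase TAK1, fell by 2.38 ± 0.41 SE on the log2 scale (adjusted p = 0.00482), from 2.18 to 0.423 CPM. The lower genes of the list include Map2k4 and the higher ones Txn1, which are a kinase kinase and an inhibitor of the MAP3 kinase ASK1.

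Of 6 other kinases downstream of p38, 4 were higher, against 24.3% of all rows, and 1 lower, and without SCI replicate 3 these were 2 and 1. That setting called 35.9% of all rows in either direction. Mknk2, a kinase of the translation factor eIF4E, rose by 1.11 ± 0.13 SE (adjusted p = 0.00181 by edgeR), and Mapkapk3, the close relative of Mapkapk2, by 0.60 ± 0.19 SE (adjusted p = 0.0394). Rps6ka5, which encodes the histone kinase MSK1, fell by 0.67 ± 0.10 SE (adjusted p = 0.00312). Among 9 transcription factors that p38 phosphorylates 4 were higher, with Atf1 at a log2FC of 0.68 and Usf1 at 0.65, and 3 lower, with Atf2 at -0.52. Without SCI replicate 3 these were 2 and 1.

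Of 10 other phosphatases that act on p38, 1 was higher and 5 lower, against 24.3% and 25.0% of all rows, with a median log2FC of -0.41. Dusp2, a phosphatase of immune cells, rose by 1.79 ± 0.36 SE (adjusted p = 0.00793 by edgeR), from 0.630 to 2.204 CPM. Dusp8 fell by 2.44 ± 0.42 SE (adjusted p = 0.00486) and Ptprr by 1.63 ± 0.24 SE (adjusted p = 0.00307), and both are known from neurons. Of 3 phosphatases directed at ERK, Dusp6 was higher (log2FC 0.87) and Dusp7 lower (-0.58).

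On the side of mRNA decay, 3 of 6 other mRNA-binding and MK2-dependent effectors were higher and none was lower. Hspb1, the small heat shock protein that MK2 phosphorylates, rose by 1.996 ± 0.31 SE (adjusted p = 0.0033 by edgeR), from 126 to 509 CPM, and Zfp36l2 and Zfp36l1, relatives of Zfp36, had log2FC of 1.04 and 0.77. Of 9 tested mRNAs known as targets of tristetraprolin, 6 were higher and none lower, with a median log2FC of 1.76, and 3 were higher without SCI replicate 1 or without SCI replicate 3. Those settings called 42.7% and 35.9% of all rows in either direction. The chemokines Ccl3, Cxcl1 and Ccl2 led, with log2FC of 3.59 ± 0.42, 3.04 ± 0.58 and 2.79 ± 0.56 (SE; adjusted p = 0.00182, 0.00667 and 0.00769), all from under 1 CPM in Sham.

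Of 7 tested kinases of the sister ERK and JNK branches none was higher and 5 were lower, against 25.0% of all rows called lower, with a median log2FC of -0.77. Mapk10, the JNK gene best known from neurons, fell by 2.09 ± 0.24 SE (adjusted p = 0.00182 by edgeR) and Mapk9 by 1.21 ± 0.19 SE (adjusted p = 0.00368). Of 12 tested immediate early genes 5 were higher and 1 lower, against 24.3% and 25.0% of all rows. Atf3, a stress and axon injury gene, rose by 3.31 ± 0.27 SE (adjusted p = 0.00109), Egr2 had a log2FC of 1.45, and Arc, a gene of active synapses, fell by 1.55 ± 0.32 SE (adjusted p = 0.00806).

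**Figure D5:**
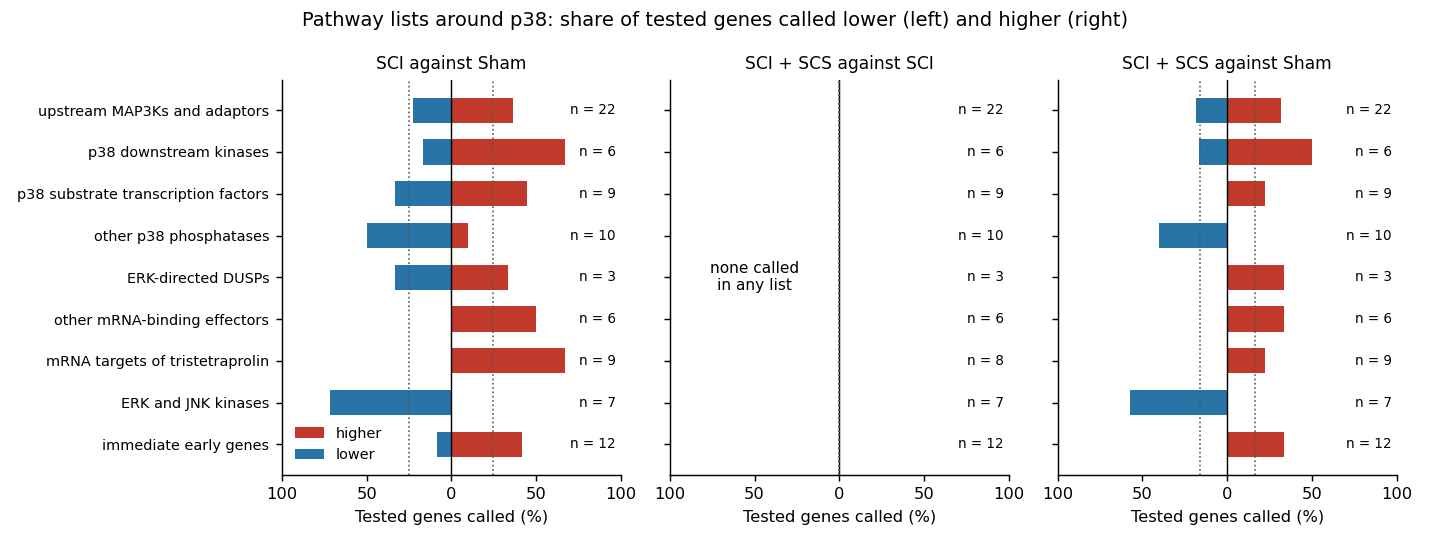
Share of tested genes of each pathway list (x axis, %) called higher (right of 0) and lower (left of 0) by edgeR at an adjusted p under 0.05, by list (y axis) and comparison; dotted lines mark the share of all rows called in each direction, and n is the number of genes tested. The ERK and JNK kinases lie to the left only, and the lists of mRNA-binding effectors and tristetraprolin targets to the right only.

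In SCI + SCS against SCI no gene of the 9 lists was called by edgeR. By unadjusted p under 0.05, against 24.2% of all rows, 5 of 8 tested targets of tristetraprolin passed, 4 of 10 phosphatases, 4 of 7 ERK and JNK kinases, 3 of 9 transcription factors and 5 of 22 upstream genes. So did 2 of 12 immediate early genes, 1 of 6 mRNA-binding effectors, 1 of 6 downstream kinases and 0 of 3 phosphatases directed at ERK. DESeq2, which called 16.1% of its rows, called 4 targets, 4 phosphatases, 2 ERK and JNK kinases, 1 transcription factor, 3 upstream genes, 2 immediate early genes, 1 effector and 1 downstream kinase. The targets had a median log2FC of -0.79, with Ccl2 at -1.18 (adjusted p = 0.103 by edgeR) and Ccl3 at -0.74 (adjusted p = 0.105). The ERK and JNK kinases had a median of 0.29, and the phosphatase gene Ptprr had a log2FC of 0.85 (adjusted p = 0.0719). In SCI + SCS against Sham, where 16.2% of all rows were called in each direction, 7 of 22 upstream genes were higher and 4 lower, and 3 of 6 downstream kinases were higher and 1 lower. Of the phosphatases 4 of 10 were lower and none higher, of the ERK and JNK kinases 4 of 7 were lower and none higher, and of the phosphatases directed at ERK 1 of 3 was higher. In the remaining lists none was lower, and 2 of 9 targets of tristetraprolin, 2 of 9 transcription factors, 2 of 6 mRNA-binding effectors and 4 of 12 immediate early genes were higher.

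The likeness of patterns over the 9 libraries is described by Pearson's r of log2(CPM + 0.5), in which all pairs share the libraries and the differences between groups. Mapk13 and Mapkapk2 had an r of 0.974, Map2k3 and Mapk13 0.952, and Dusp1 and Zfp36 0.880. Mapk11 ran against Mapk13 (r = -0.947) and against Mapkapk2 (-0.932), and with Map2k6 (0.866). Among 16080 rows tested in all 3 comparisons, the symbols most like each gene were Gusb and Slc27a3 for Mapk13 (r = 0.997 and 0.996), Lrrc71 and Rps9 for Map2k3 (0.995 and 0.993) and Nhlrc3 and Cndp1 for Mapkapk2 (0.995 and 0.994). They were Scand1 and Arl6ip6 for Mapk14 (0.994 and 0.989), Rnft2 and Fsd1l for Mapk11 (0.987 and 0.983), and Ndel1 and Atp8b2 for Mapk12 (0.978 and 0.961). Cxadrl1 and Hagh were nearest to Map2k6 (0.977 and 0.972), Pimreg and Pcyt1a to Dusp1 (0.972 and 0.953), and Saa4 and Tmem129 to Zfp36 (0.967 and 0.965).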

How the data were processed

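RNA was sequenced from 9 spinal cords, with groups and replicate numbers taken from the labels. Per the labels, polyadenylated RNA was captured on oligo(dT). The submitters' processing notes name fastp 0.23.2, HISAT2 2.2.1 and mRatBN7.2, and the counting program is not given in the sources used here. The deposited counts per gene are raw. The deposited FPKM were scaled by the authors for gene length and library size. The genes and lists were chosen with earlier results of these data known.

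The main test was the quasi-likelihood F test of edgeR 4.0.16 under R 4.3.3 (TMM, default filter) over the 6 libraries of each pair of groups, with Benjamini-Hochberg adjustment over all rows. The SE is |log2FC| divided by the square root of F. DESeq2 1.42.0, limma 3.58.1 on log2(FPKM + 1) and log2(FPKM + 0.1) for rows with a mean FPKM of at least 0.1, other filters, the replicate block, a muscle covariate and leaving out each library were alternatives, and robust edgeR and matching by symbol alone were added after seeing the data. The tests were tested on simulated data. Members are all named. Of each list, the 3 called genes with the largest |log2FC| and no overlap in SCI against Sham are named, and for each member the 2 symbols with the highest r. One gene that this rule names is not reported here. Map2k4 and Txn1 were named after their values were seen. In SCI + SCS against SCI no gene of the lists was called by edgeR, and Ccl2, Ccl3 and Ptprr were named there outside the rule. For a symbol on several rows (Usf1, Mapk9, Map2k7, Mrc1, Syt1) the row with the highest total was used. PCR reads are not independent molecules, so floors cover counting error only. The p-values of edgeR, DESeq2 and limma weigh a group difference against the variation among 3 rats per group. These tools estimate that variation partly from other rows.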

Additional observations from a re-analysis of the deposited data

How the results depend on the processing

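In SCI against Sham 8 of the 9 genes were called, and 4 with the muscle level as a covariate, 4 with |log2FC|>1 as a further condition and between 4 and 8 when 1 library was left out, the lowest without SCI replicate 3. With the muscle covariate 29.9% of all rows were called and without SCI replicate 3 35.9%, against 49.4% in the main test. In SCI + SCS against SCI 0 were called, 1 by DESeq2, 4 by unadjusted p under 0.05 (1 to 4 without 1 library, 2 with the replicate block and 2 or 3 from FPKM) and 0 by adjusted p without any 1 library. For the counts by unadjusted p, the share of all rows was computed in the main test alone. In SCI + SCS against Sham 8 were called, 4 with the muscle covariate, 4 from log2(FPKM + 1) without a filter, 1 with |log2FC|>1, and between 0 and 8 without 1 library. With the replicate block, 8, 0 and 0 were called in the 3 comparisons, beside 8701 of 17822, 0 of 17663 and 1259 of 17640 rows. The muscle covariate called 4072 of 17640 rows in SCI + SCS against Sham. Libraries that share a replicate number come from separate animals, so the main test did not pair them. After removal of group means they correlated by 0.243, -0.0555 and 0.200 in SCI against Sham. The values were -0.165, 0.00198 and -0.205 in SCI + SCS against SCI, and -0.329, 0.0221 and -0.314 in SCI + SCS against Sham. With 3 pairs per comparison, these values cannot decide whether libraries of the same number were handled together. The differences in Mapk14 share and in the Map2k3 to Map2k6 ratio kept their direction without any 1 library and from raw counts, and with Mapk12 left out of the sum the share difference between SCI + SCS and SCI was -6.84 percentage points in place of -3.83.

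Directions turned only in SCI + SCS against SCI and for genes not called there. Leaving out 1 library gave a log2FC from -0.209 to 0.0546 for Mapk12, from -0.297 to 0.0346 for Dusp1 and from -0.0640 to 0.159 for Zfp36, and the sign turned in all 3 without SCI replicate 3 and in Zfp36 also without SCI + SCS replicate 1 (-0.0527). With the muscle covariate it was 0.00381 for Mapk14 and 0.167 for Dusp1. The cause was not tested. At least 10 counts in every library removed Mapk13 from both comparisons with Sham.

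In SCI against Sham, the 9 tested targets of tristetraprolin had 3 higher genes in place of 6 without SCI replicate 1, without SCI replicate 3 and with the muscle covariate, and the 9 transcription factors had 3, 2 and 2 higher and 1, 1 and 0 lower. For the other lists these settings moved each direction by at most 2 genes. Over all rows they called 42.7%, 35.9% and 29.9%, against 49.4% in the main test.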
